A study of Mus musculus with 8 samples.

Results

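Interstitial collagens and matrix genes are described here as a list of 34 genes, chosen by name with earlier results of these data known. The list holds chains of collagens I, III, V, VI, VIII, XI, XII and XVI, fibronectin, tenascin, lysyl oxidases, small proteoglycans and their partners. All 34 were found among the 22904 gene symbols on the array. Of these 33 could be tested, among 20265 genes tested in all, and Lum could not.

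The RNA came from mammary tumours of mice with a pair of transgenes, sSHIP and C(3)1 Tag, with 1 array for each sorted sample. In these mice GFP reports the promoter of a short SHIP1 isoform, and the C3(1) promoter drives the SV40 T antigen in mammary epithelium; both sorted populations carry both transgenes. The groups are Lin-CD49f+GFP+ cells and Lin-CD49f+GFP- cells, 4 arrays each, called GFP-positive and GFP-negative. The titles carry the numbers 566, 567, 573 and 631, each once in each group, and a number is taken here to be a tumour. The labels used here do not say whether the numbers are separate animals, and give no age, lineage antibodies or untransformed control. P-values therefore rest only on these samples, whose spread may be technical.

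The interstitial matrix is the fibrous scaffold between cells. Fibril-forming collagens assemble into ropes with collagens V and XI at their core, collagen VI makes a beaded network, and fibrillin with microfibril-associated proteins templates elastic fibres. Lysyl oxidases cross-link collagen and elastin, and small proteoglycans such as decorin space the fibrils. In mammary tumours fibroblasts are the best known source of most of these proteins, although carcinoma cells can make some of them.

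RefSeq promoter sequences matched 21 of the 34 genes, as 26 promoters. The stretches shown are the 250 bases before the annotated start on build GRCm38.p6, 5′ to 3′ on the gene's own strand, for 5 genes the comparisons turn on. Col1a2 and Col3a1 encode fibril chains that were low in 1 tumour, Thbs2 and Tnc lay higher on average in GFP-positive cells and Col5a3 lower. Capitals mark the letters CCAAT of the CAAT box, TATAAA of the TATA box, GGGCGG of the GC box and CAGACA of a SMAD-type box, on either strand. They are letter matches at any position, and their use as boxes was not tested. TATAAA lay 117 to 112 bases before the start in Col3a1 and 126 to 121 in Tnc. In Thbs2 it lay 126 to 121 bases before the start, on the opposite strand.
Col1a2, chr6:4505368-4505617, plus strand: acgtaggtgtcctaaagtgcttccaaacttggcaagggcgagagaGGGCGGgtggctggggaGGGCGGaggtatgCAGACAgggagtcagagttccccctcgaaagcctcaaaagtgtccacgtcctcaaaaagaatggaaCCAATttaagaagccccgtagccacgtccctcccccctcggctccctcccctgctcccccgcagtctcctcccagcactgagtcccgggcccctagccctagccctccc
Col3a1, chr1:45311288-45311537, plus strand: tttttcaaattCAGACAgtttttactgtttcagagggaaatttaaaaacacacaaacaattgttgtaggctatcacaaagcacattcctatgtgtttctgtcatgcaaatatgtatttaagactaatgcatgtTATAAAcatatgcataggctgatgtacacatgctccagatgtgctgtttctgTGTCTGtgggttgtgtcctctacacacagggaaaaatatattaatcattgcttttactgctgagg
Thbs2, chr17:14694263-14694512, minus strand: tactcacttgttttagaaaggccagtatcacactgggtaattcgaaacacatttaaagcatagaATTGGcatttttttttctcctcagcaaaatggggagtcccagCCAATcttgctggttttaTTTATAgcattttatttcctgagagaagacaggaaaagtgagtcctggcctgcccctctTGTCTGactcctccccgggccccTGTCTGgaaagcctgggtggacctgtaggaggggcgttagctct
Tnc, chr4:64047016-64047265, minus strand, the upstream one of its starts: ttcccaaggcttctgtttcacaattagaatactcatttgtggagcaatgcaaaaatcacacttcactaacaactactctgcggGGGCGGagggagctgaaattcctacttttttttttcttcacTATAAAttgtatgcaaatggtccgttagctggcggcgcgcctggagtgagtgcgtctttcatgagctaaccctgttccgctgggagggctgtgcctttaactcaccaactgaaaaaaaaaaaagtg
Col5a3, chr9:20815068-20815317, minus strand: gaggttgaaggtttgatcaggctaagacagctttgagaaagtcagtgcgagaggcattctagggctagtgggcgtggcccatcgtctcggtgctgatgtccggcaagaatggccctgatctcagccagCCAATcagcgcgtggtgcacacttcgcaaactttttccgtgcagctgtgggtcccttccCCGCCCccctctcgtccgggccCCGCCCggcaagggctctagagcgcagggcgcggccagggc

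Both strands were searched for 7 motifs. GGGCGG stood in 16 of 26 member promoters against 32.7% of all 32851 promoters of this length. CAGACA stood in 10 of 26 against 17.1%. CCAAT stood in 6 of 26 against 33.8%, TATAAA in 5 against 12.4%, the TEAD-type GGAATG in 3 against 12.6% and the AP-1 letters TGANTCA in 1 against 6.75%. The CArG box was in 0 of 26, against 1.47% of all. In the 5 stretches printed no matches overlap each other. Promoters of neighbouring starts of 1 gene overlap, so the 26 are not independent. In the stretches printed Col5a3 and Tnc had no CAGACA, and Col3a1 and Thbs2 had no GGGCGG.

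The 8 arrays shared 1 slide and 1 scan, with the populations in separate slide columns, so column and population cannot be told apart. Gene spots well above background made up 34.1% on the GFP-positive array of 573 and 53.5% to 58.5% on the others. The dimmest signal that counted as above background was 142 intensity units there and 13.4 to 23.5 elsewhere. Levels are log2 of intensity with 0 at the array's 75th percentile, and on that scale the limit was -1.26 there and -5.42 to -4.58 elsewhere. Of the tested members 23 were above background everywhere, and the other 10 failed on that array alone, where their values are signal under the limit. The GFP-negative array of 631 stood apart in some epithelial genes: Epcam was at -1.57 there and at 2.39 to 3.90 on the other arrays. The keratins Krt8 and Krt18 were not low there, at 6.54 and 7.93. Inpp5d, the gene of SHIP1, had a mean difference between populations of 1.98 (SE 0.59) and was higher in GFP-positive cells of 566, 567 and 631. In 573 its GFP-positive signal did not clear the limit, so no sign is measured there. Itga6, the gene of CD49f, lay between 4.08 and 5.47.

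The matrix genes were low in 573 and high in 567. In 573 the mean of both arrays lay below the mean of the other numbers for 30 of 33 members, against 44.2% of all genes, with a median of -2.04 (log2) over members and 0.08 over all genes. In 567 it lay above for 31 of 33, against 41.1%, with a median of 1.27 over members and -0.10 over all genes. The members also lay above in 566, 26 of 33 against 48.4%, and in 631 it was 18 of 33 against 53.1%. Among GFP-negative arrays alone, where every tested member was above background in 573, 573 was the lowest for 22 of 33 members against 24.3% of all genes, and 567 the highest for 21 against 12.8%. Scaling on the array median instead moved all genes down in 573, to a median of -0.56 with 82.4% below, and the members to -2.68 with 32 of 33 below. In 567 it put 75.3% of all genes and 32 of 33 members above.

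**Figure D1:**
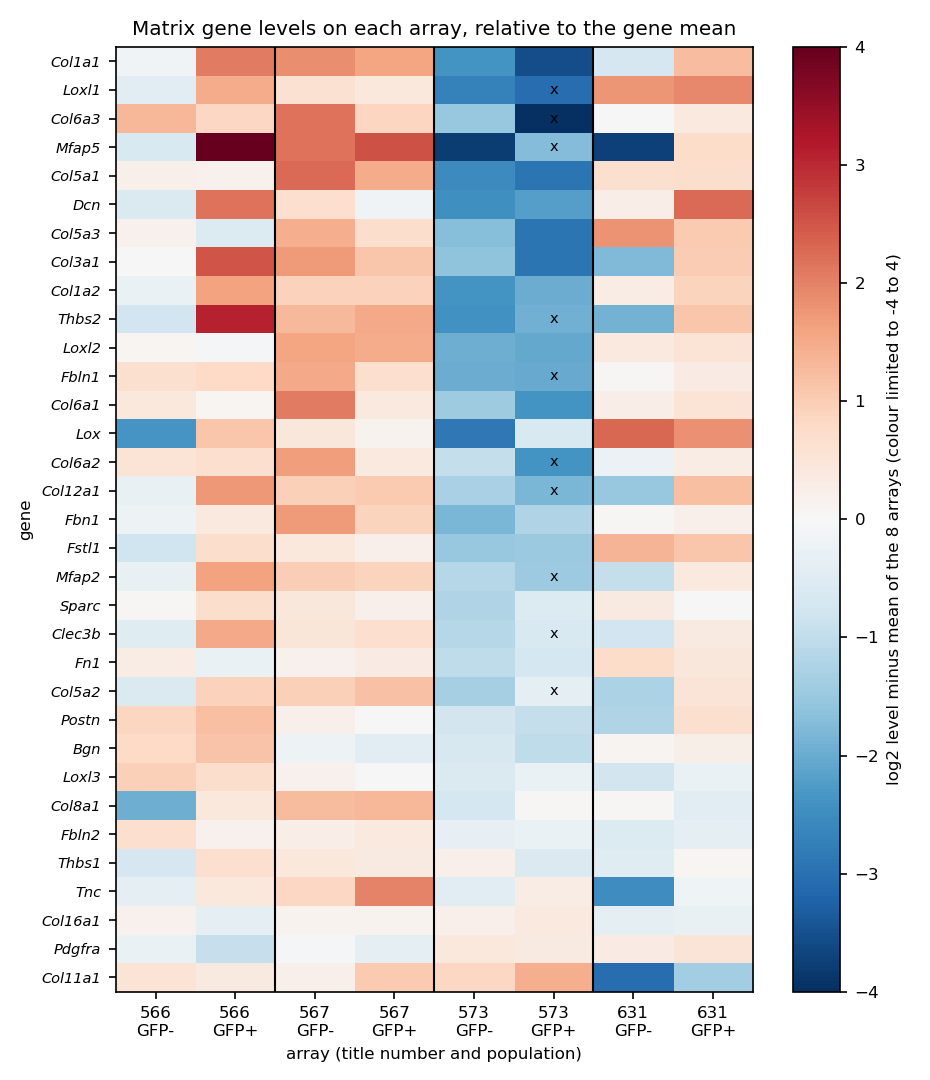
Log2 level of each of the 33 tested matrix genes (rows) on each of the 8 arrays (columns, by title number and population), minus the gene's mean over the 8 arrays; a cross marks an array on which the gene was not well above background. Most genes have their lowest values in the 573 columns, and Col11a1 has its lowest, -1.10 before the mean is taken off, on the GFP-negative array of 631.

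Limma's moderated F test across the 4 numbers, with population as a covariate, called 19 of 33 members at a Benjamini-Hochberg adjusted p under 0.05, where 28.8% of all genes were called. At an unadjusted p under 0.05 it was 29 of 33, against 46.3%. The count rests on particular arrays and settings. It was 6 of 34 without both arrays of 573 (14.4% of all genes) and 10 of 34 without its GFP-positive array (15.4%). It was 9 of 33 without the GFP-negative array of 567 (7.18%), 12 without its GFP-positive array (7.81%), and 11 without the GFP-positive (14.3%) or the GFP-negative array of 566 (13.4%). Quantile normalization gave 9 (12.2% of all genes), a common signal floor 4 (7.31%), median scaling 30 (31.9%) and no filter on dim probes 0 of 34 (0%). By gene, the call was lost in 15 alternatives for Col5a2, 13 for Fn1, 12 for Col6a2, 11 for Loxl3 and 10 each for Col1a1 and Mfap5. For Col5a1, Col5a3 and Loxl2 it was lost in 1 each. Numbers held 76.3% of the members' sum of squares and 76.6% of that of all genes. With 1 array for each number and population, the error of the F test is the variation of the GFP difference between numbers. A gene whose pairs disagree can therefore miss the threshold although its means differ widely between numbers. Lox, whose means spanned 3.80, did not pass.

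**Figure D2:**
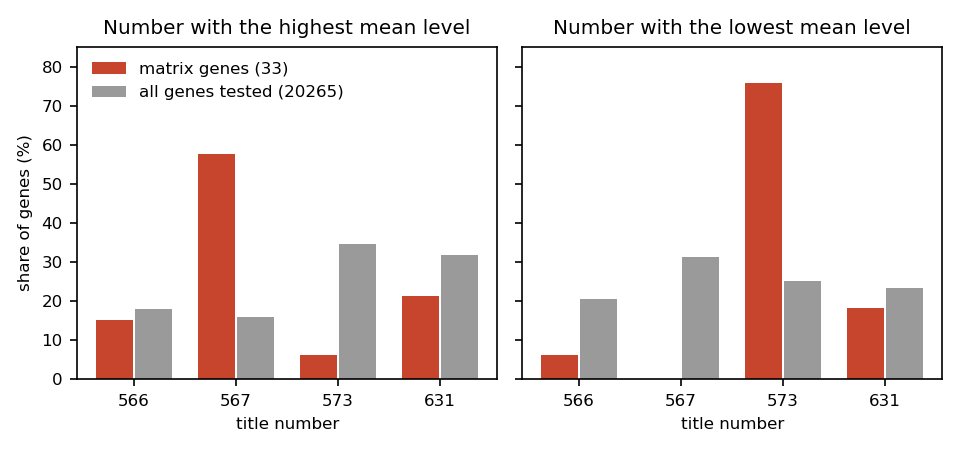
Share of genes (%, bars from 0) whose mean level was highest or lowest in each title number, for the 33 matrix genes and for all 20265 genes tested. Number 567 was the highest for 19 of 33 matrix genes (15.9% of all genes) and the lowest for 0 (31.2%). Number 573 was the lowest for 25 (25.1%) and the highest for 2 (34.5%).

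Of the fibril-forming collagens 6 of 7 were called across numbers, against 28.8% of all genes, and 6 of 7 were lowest in 573, against 25.1%. Col1a1, the major chain of collagen I, had GFP-positive and GFP-negative levels of 5.32 and 3.10 in 566, 4.82 and 5.09 in 567, -0.30 and 0.84 in 573, and 4.48 and 2.55 in 631. Both values of 573 lay under all others, and their mean was 15.5-fold under that of the other numbers (limma adjusted p = 0.0274). Its partner chain Col1a2 had 6.80 and 4.91 in 566, 6.11 and 6.12 in 567, 3.21 and 2.80 in 573, and 6.09 and 5.48 in 631 (limma adjusted p = 0.0133). Again 573 was lowest in both populations. Col3a1, the chain of collagen III, had 4.75 and 2.22 in 566, 3.37 and 3.94 in 567, -0.69 and 0.65 in 573, and 3.26 and 0.48 in 631. It did not pass (limma adjusted p = 0.0883), and its GFP-negative value of 631 lay under that of 573.

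The 3 chains of collagen V, which regulates fibril diameter, were all called. Col5a1 levels were 3.06 and 3.08 in 566, 4.38 and 5.15 in 567, -0.03 and 0.33 in 573, and 3.61 and 3.54 in 631, and 573 stood 12.6-fold under the others (limma adjusted p = 0.00400). Col5a3 was also lowest in 573, at 0.65 and 1.86, and highest in 631, at 4.62 and 5.36 (limma adjusted p = 0.00400). Col5a2 had means of -1.86, -0.97, -2.89 and -2.41 in 566, 567, 573 and 631 (limma adjusted p = 0.0406). Its value on the GFP-positive array of 573 was not clear of background, and the call was kept in 5 alternatives and lost in 15. Col11a1, a collagen XI chain of fibril cores, ran the other way. Its levels were 2.31 and 2.50 in 566, 2.98 and 2.15 in 567, 3.41 and 2.76 in 573, and 0.56 and -1.10 in 631 (limma adjusted p = 0.0108). It was highest in 573, and in 631 it was 7.76-fold under the other numbers.

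The 3 collagen VI chains were called, against 28.8% of all genes. Each was lowest in 573 and highest in 567, against 25.1% and 15.9% of all genes. Means in 566, 567, 573 and 631 were 3.75, 4.73, 1.60 and 3.90 for Col6a1 (limma adjusted p = 0.0172). They were 1.09, 1.50, -1.19 and 0.51 for Col6a2 (limma adjusted p = 0.0346) and 3.10, 3.53, -0.74 and 2.21 for Col6a3 (limma adjusted p = 0.0164). Of these, Col6a2 and Col6a3 did not clear the background limit of the GFP-positive array of 573. The network collagen Col8a1 and the fibril-associated Col12a1 and Col16a1 did not pass (limma adjusted p = 0.123, 0.113 and 0.212). Col8a1 was highest in 567 at 5.84, and Col16a1 spanned 0.63 between numbers.

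Of the microfibril and fibulin genes 3 of 5 were called, against 28.8% of all genes. Mfap5, a microfibril-associated glycoprotein, was called (limma adjusted p = 0.0324), and in GFP-negative cells it was highest in 567, at 1.88, and near -4.10 in both 573 and 631. Mfap5, Fbln1 and Mfap2 did not clear the background limit of the GFP-positive array of 573. Fbln1, fibulin-1, had means of 1.38, 1.74, -1.33 and 0.86 in the 4 numbers and Fbn1, fibrillin-1, had 1.75, 2.94, 0.12 and 1.77 (limma adjusted p = 0.00738 and 0.0157). Fbln2 and Mfap2 did not pass (limma adjusted p = 0.0594 and 0.0648).

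Of the cross-linking enzymes Loxl1, Loxl2 and Loxl3 were called and Lox was not. Loxl1 had means of 0.46, 0.45, -2.96 and 1.77 in 566, 567, 573 and 631 (limma adjusted p = 0.0102). Its GFP-positive value in 573 was not clear of background, and its GFP-negative value there was -2.79. Loxl2 had 1.62, 3.14, -0.39 and 2.09 and Loxl3 had 0.28, -0.43, -0.95 and -1.03 (limma adjusted p = 0.00400 and 0.0286). Loxl3 was thus lowest in 631, just under 573. Lox itself had 2.12 and -1.33 in 566, 1.15 and 1.49 in 567, 0.42 and -1.83 in 573, and 2.85 and 3.34 in 631 (limma adjusted p = 0.0844). It was highest in 631 in both populations, and the populations lay far apart in 566 and 573.

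Of the small proteoglycans that bind fibrils, Bgn had means of 1.98, 0.70, 0.19 and 1.19 in the 4 numbers (limma adjusted p = 0.0155). Dcn had 3.11, 2.58, -0.01 and 3.58 (limma adjusted p = 0.0523), and both were lowest in 573. Lum, lumican, stayed below the background limit on 2 arrays, GFP-positive of 573 and GFP-negative of 631. Its signal was 2.52 and -1.13 in 566, 0.15 and 0.44 in 567, -3.29 and -4.44 in 573, and 1.19 and -4.34 in 631. It was not tested, and like Dcn it lay higher in GFP-positive cells of 566 and 631.

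Of the glycoproteins 3 of 7 were called, against 28.8% of all genes. Fn1, the fibronectin on which collagen is laid down, was lowest in 573 at 6.97 and highest in 631 at 8.42 (limma adjusted p = 0.0328). Fstl1, a secreted glycoprotein, ran from 2.32 in 573 to 5.06 in 631 (limma adjusted p = 0.0253). Tnc, tenascin-C, was highest in 567 at 0.95 and lowest in 631 at -1.80 (limma adjusted p = 0.0200). Sparc, Thbs2, Postn and Thbs1 did not pass (limma adjusted p = 0.0656, 0.0632, 0.103 and 0.651). Sparc had means of 8.57, 8.53, 7.32 and 8.39 in the 4 numbers, Postn 2.75, 1.82, 0.88 and 1.42 and Thbs1 1.24, 1.62, 1.06 and 1.03. Sparc and Postn were thus lowest in 573 too, and Thbs1 varied little.

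The lectin Clec3b and the receptor Pdgfra did not pass either (limma adjusted p = 0.0936 and 0.0508). Clec3b was lowest in 573 among GFP-negative arrays, at -3.88. Pdgfra, which marks fibroblasts, had means of 0.23, 0.61, 1.22 and 1.25 in the 4 numbers, so it was not low where most matrix genes were.

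Between the populations no member passed. On average 21 of 33 members lay higher in GFP-positive cells, against 36.2% of all genes, with a median difference of 0.27 over members and -0.06 over all genes. Across the scalings tried, 20 to 24 members lay higher, against 20.4% to 52.3% of all genes. The count was 22 of 34 without both arrays of 573, against 41.3% of all genes. Leaving out 1 array of that low number breaks a pair and so shifts a population mean. The count was then 31 of 34 without its GFP-positive array (37.6% of all genes) and 15 of 33 without its GFP-negative array (44.1%). Without a filter on dim probes 22 of 34 members lay higher, against 64.6% of all genes. Limma called 0 of 20265 genes, 0%, with 0.227% higher and 0.567% lower at an unadjusted p under 0.05, and 0 of 33 members, with 0 at an unadjusted p under 0.05. Groups of 4 that did not overlap were seen for 0 members, against 0.148% of all genes higher and 0.671% lower.

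Pairs differed. In 566 and 631, 22 and 27 of 33 members lay higher in GFP-positive cells, against 51.7% and 30.7% of all genes. In 567 it was 10 of 33 against 48.3%, and in 573 it was 17 of 33 against 39.1%, with 10 of the 33 not measured on its GFP-positive array. Of the 23 members above background on all arrays 13, 5, 13 and 17 lay higher in 566, 567, 573 and 631, against 53.9%, 51.1%, 40.4% and 28.5% of the 13279 such genes. Higher in both 566 and 631 were 18 of 33, against 12.9% of all genes. With 1 array for each number and population, whether numbers differ in this contrast has no test.

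**Figure D3:**
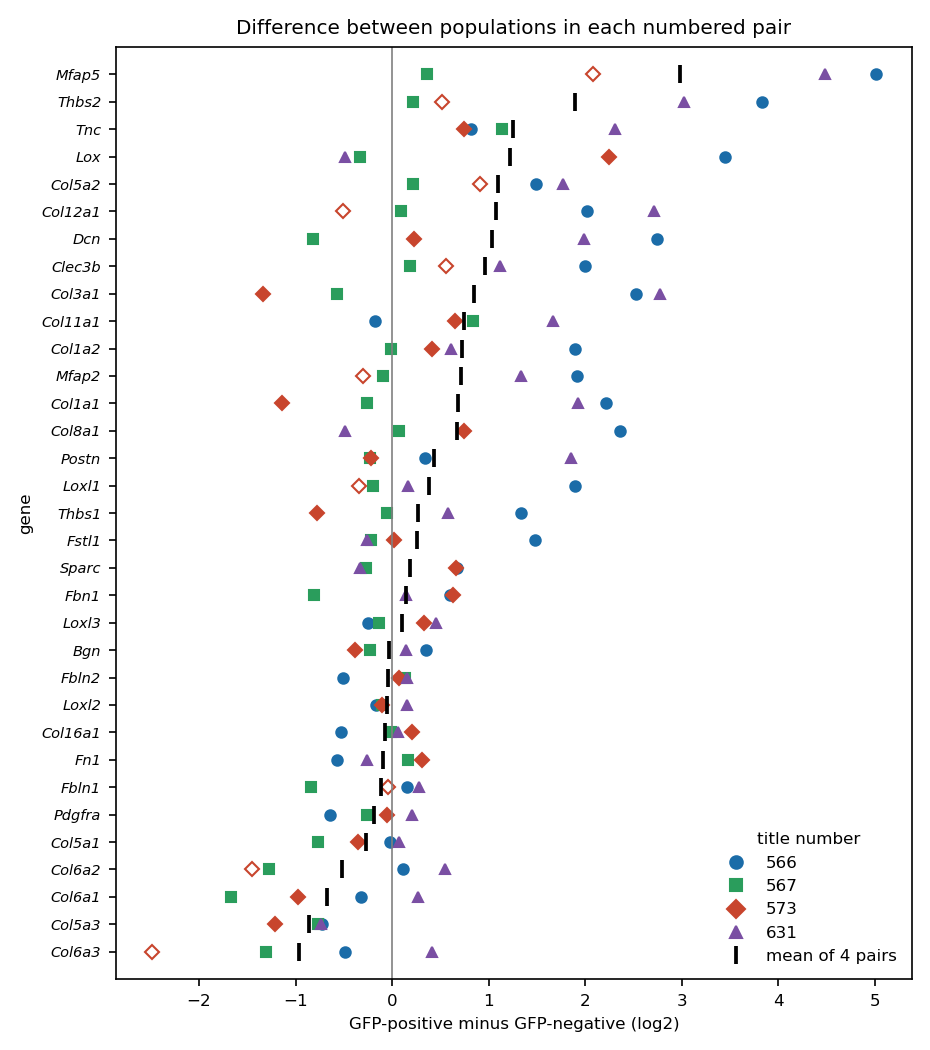
GFP-positive minus GFP-negative level (log2, horizontal axis) of each matrix gene (rows, sorted by mean difference) in each numbered pair; black bars are means over the 4 pairs, and open symbols mark pairs with an array not well above background. The widest difference is that of Mfap5 in 566, 5.01, and for 18 of 33 genes the points of both 566 and 631 lie right of 0.

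By signal 9 members lay higher in GFP-positive cells of 566 and 631 and lower in those of 567 and 573, as 3.34% of all genes did. It held Col1a1, Col3a1, Col6a2, Postn, Thbs1, Mfap2, Loxl1, Fbln1 and Bgn. The sign in 573 was measured for 6 of them, and not for Mfap2, Loxl1 and Fbln1, whose values there were under the limit. The count was 9 with quantile normalization and 8 with median scaling, normexp or the percentile over probes seen on all arrays. Col1a1 differed by 2.22, -0.27, -1.14 and 1.93 in 566, 567, 573 and 631, and Col3a1 by 2.53, -0.57, -1.34 and 2.78. The means of these chains, 0.68 (SE 1.31) and 0.85 (SE 1.19), thus join pairs of opposite sign. Fbln1 and Bgn had the same signs with smaller differences, 0.15, -0.84, -0.04 and 0.28 and 0.35, -0.23, -0.38 and 0.14. Mfap2 had 1.91, -0.09, -0.30 and 1.33, Postn, a matricellular protein of fibroblasts, 0.34, -0.23, -0.22 and 1.85, and Thbs1, which can activate latent TGF-beta, 1.34, -0.05, -0.78 and 0.58. Loxl1 had 1.89, -0.20, -0.34 and 0.16, and 0.42 in 573 with normexp. Dcn, which was higher in 573 as well, had 2.74, -0.82, 0.23 and 1.99.

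By signal 5 members were higher in GFP-positive cells of all 4 numbers, against 3.34% of all genes. Tnc had -0.04 and -0.86 in 566, 1.52 and 0.38 in 567, -0.17 and -0.92 in 573, and -0.65 and -2.96 in 631. It was above background on each array, with a mean difference of 1.25 (SE 0.71), or SE 0.28 with the number as a block. The 4 others, Mfap5, Thbs2, Col5a2 and Clec3b, did not clear that limit on the GFP-positive array of 573, so their sign in 573 is not measured. With quantile normalization or median scaling Thbs2 differed in 573 by -1.07 or -0.15, and Clec3b by -1.53 or -0.12. With normexp Thbs2 differed there by -0.07.

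Mfap5 had 4.11 and -0.90 in 566, 2.24 and 1.88 in 567, -2.02 and -4.10 in 573, and 0.43 and -4.05 in 631. Its mean difference was 2.98 (SE 1.62, or 0.76 with the number as a block), and 1.77 with a common signal floor on all arrays. Thbs2, thrombospondin-2, which limits vessel growth and shapes collagen fibrils, had 1.69 and -2.13 in 566, 0.14 and -0.08 in 567, -3.29 and -3.81 in 573, and -0.26 and -3.28 in 631. Its mean difference was 1.90 (SE 1.11, or 0.63 with the block), and 1.04 with the floor. Both genes differed widely in 566 and 631 and little in 567. Col5a2, the second collagen V chain, differed by 1.49, 0.21, 0.91 and 1.77 in the 4 numbers. Its mean difference was 1.10 (SE 0.54, or 0.27 with the block). Clec3b, tetranectin, had -1.21 and -3.21 in 566 and differed by 0.18, 0.56 and 1.12 in the other numbers. Its mean difference was 0.96 (SE 0.49, or 0.30 with the block). With the floor the differences of Col5a2 and Clec3b were 0.09 and 0.01.

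**Figure D4:**
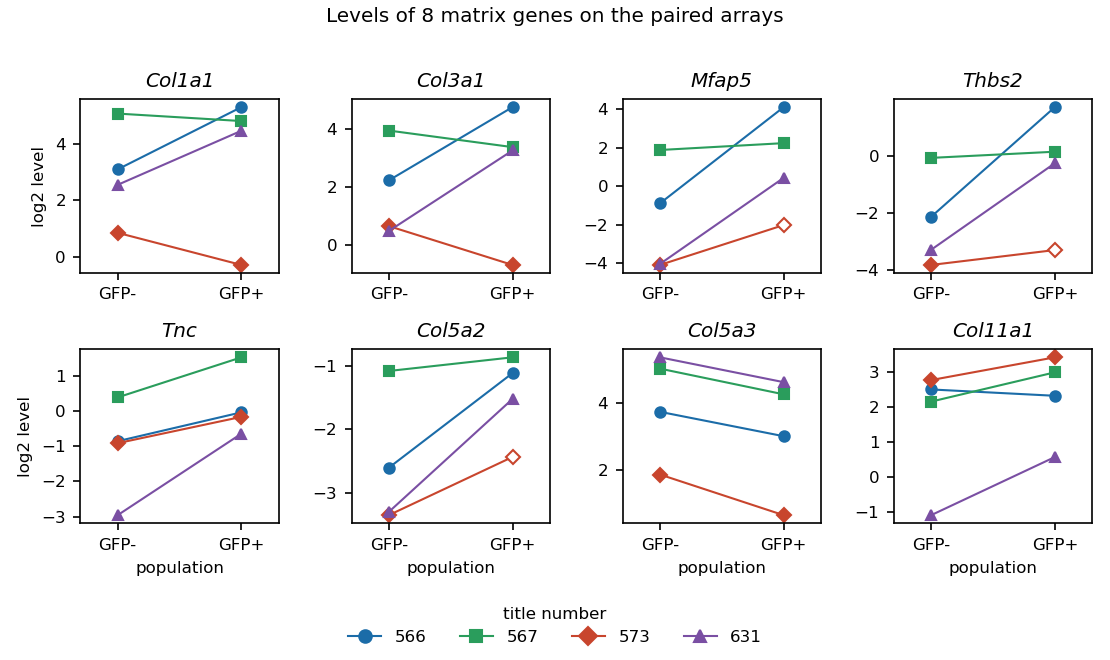
Log2 levels of 8 matrix genes in GFP-negative and GFP-positive cells, with a line joining the arrays of a title number; open symbols were not well above background, and the vertical axes differ between panels. The Tnc lines all go up and the Col5a3 lines all go down towards GFP-positive cells, while Col1a1 and Col3a1 go up in 566 and 631 and down in 567 and 573.

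Col5a3 lay lower in GFP-positive cells of all 4 numbers, as 10.9% of all genes did. Its levels were 3.00 and 3.73 in 566, 4.25 and 5.02 in 567, 0.65 and 1.86 in 573, and 4.62 and 5.36 in 631. The pairs differed by -0.73, -0.77, -1.21 and -0.74. The mean difference was -0.86 (SE 1.00), or SE 0.15 with the number as a block, and another probe gave -0.24. The collagen V chains thus had mean differences of unlike sign, with Col5a2 above 0 and Col5a1 at -0.27 (SE 1.16, or 0.18 with the block). The pairs of Col5a1 differed by -0.02, -0.77, -0.35 and 0.07 in the 4 numbers. Without the GFP-positive array of 573, but with its low GFP-negative array kept, Col5a1 differed by 0.66. That value comes from a broken pair, so it also carries the low level of 573.

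The collagen VI chains had mean differences of -0.68 for Col6a1, -0.52 for Col6a2 and -0.97 for Col6a3. Their SEs were 0.84, 0.77 and 1.19, or 0.31, 0.37 and 0.44 with the number as a block. Each chain lay lower in GFP-positive cells of 567 and 573 and higher in those of 631. Col6a3 differed by -0.48, -1.31, -2.49 and 0.41 in the 4 numbers. Without the GFP-positive array of 573, but with its low GFP-negative array kept, the chains differed by 0.01, 0.19 and 0.21. These values come from broken pairs, so they also carry the low level of 573. Col5a1, Loxl2 and Pdgfra shared with Col6a1 and Col6a3 a difference above 0 in 631 alone, a pattern of 4.92% of all genes.

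Lox, Fstl1 and Sparc, a collagen-binding protein, lay higher in GFP-positive cells of 566 and 573. Lox differed by 3.45, -0.33, 2.25 and -0.49 in the 4 numbers, with a mean of 1.22 (SE 1.11). Fstl1 differed by 1.48, -0.22, 0.02 and -0.26 and Sparc by 0.67, -0.27, 0.66 and -0.34. Col1a2 and Fbn1 lay higher in all numbers but 567, by means of 0.72 (SE 0.90) and 0.14 (SE 0.72). Col12a1 differed by 2.02, 0.10, -0.51 and 2.71, its sign in 573 not being measured, Col8a1 by 2.36, 0.07, 0.75 and -0.48 and Col11a1 by -0.18, 0.84, 0.65 and 1.66. The means of Fn1, Fbln2, Col16a1 and Loxl3 were -0.09 (SE 0.41), -0.04 (SE 0.32), -0.07 (SE 0.24) and 0.10 (SE 0.40).

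With the number as a block, limma's unadjusted p was under 0.05 for 6 members higher, against 1.63% of all genes, and for 1 lower, against 3.88%. These were Tnc, Col5a2, Mfap5, Clec3b, Thbs2 and Col11a1, and Col5a3. Of these Col5a2, Mfap5, Clec3b and Thbs2 lack a measured GFP-positive level in 573, and under the common floor Col5a2 and Clec3b differed by 0.09 and 0.01. None passed after adjustment over all genes, where the smallest limma adjusted p of a member was 0.698, that of Col5a3.

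Markers of other cells moved with some of these values. The 16 fibroblast markers summed to 159 and 65.4 times the 75th percentile in GFP-positive and GFP-negative cells of 566, 89.5 and 86.0 in 567, 48.1 and 47.0 in 573, and 204 and 261 in 631. These sums were lowest in 573. By gene 573 was the lowest for 7 of 12 tested fibroblast markers, against 25.1% of all genes. In 573, 8 and 12 of 16 were above background, against 14 or 15 on the other arrays. The 8 stood on the GFP-positive array with the higher limit, so that count is not comparable. In 567, highest for 19 members, the sums were not highest. In 631 the sum was higher in GFP-negative cells, led by Pdpn and Mmp2, while by gene 6 of 12 tested markers lay higher in GFP-positive cells, with a median difference of -0.02.

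The 12 endothelial markers summed to 52.1 on the GFP-positive array of 566 and to 3.09 to 10.1 on the other arrays. All 12 were above background on the GFP-positive arrays of 566 and 567, and 2 of 12 on that of 573, whose sum was 10.1. By signal each GFP-negative sum lay under its GFP-positive one, at 4.07, 4.80, 7.77 and 3.09 in 566, 567, 573 and 631. In 631 the GFP-positive sum was 3.50. The 12 pericyte and mural markers summed to 36.4 to 63.0 in GFP-positive and 57.5 to 97.1 in GFP-negative cells. In GFP-positive cells of 573 only 2 of 12 cleared the limit, so most signs in that pair are not measured. In 566, 567 and 631, 1, 0 and 2 of 12 lay higher in GFP-positive cells. Macrophage sums ran from 11.2 to 18.2. Epithelial sums ran from 343 to 713, with 13 or 14 of 14 markers above background, and were led by the keratins Krt8 and Krt18. By gene 13, 14, 3 and 12 of 14 lay higher in GFP-positive cells of 566, 567, 573 and 631, with median differences of 0.35, 0.79, -0.33 and 3.83. In 631, where 27 of 33 matrix genes lay higher too, the GFP-negative array was low in Epcam, Krt7 (-1.51) and Cldn7 (-0.43). On that array Krt8 and Krt18 were not low, at 6.54 and 7.93. Without that array 22 of 34 matrix genes lay higher on average in GFP-positive cells, against 44.6% of all genes. The leukocyte gene Ptprc and the fibroblast factor Tcf21 were well above background on no array, the endothelial Cdh5 and Tek on 3 and 2, and the macrophage Adgre1 and Lyz2 on 4 each. The part of these cells in the matrix differences was not tested, and fewer cells of a type and less RNA per cell cannot be told apart in bulk samples.

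**Figure D5:**
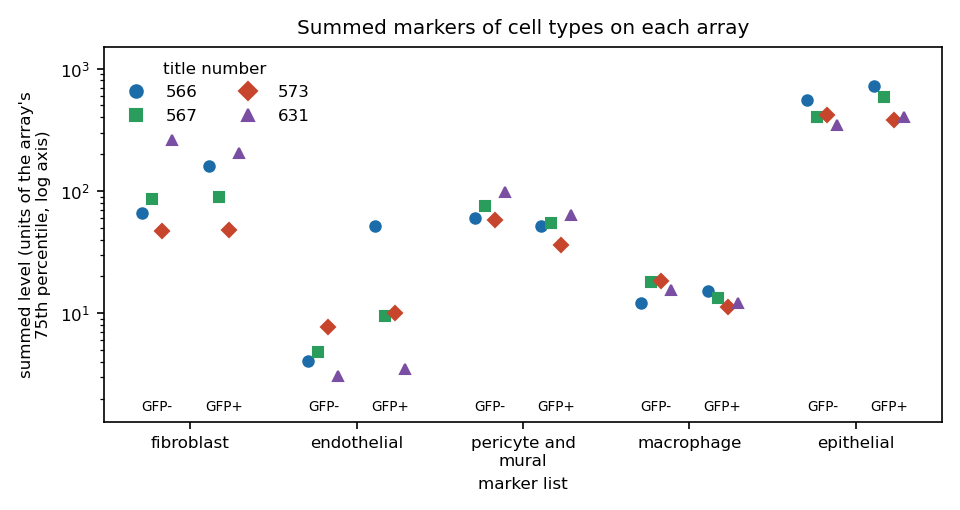
Sum of the linear levels of the markers of 5 cell types on each array, in units of the array's 75th percentile (vertical axis, log scale), for GFP-negative and GFP-positive arrays of each title number. The endothelial sum of the GFP-positive array of 566 is 52.1, and the fibroblast sums of 573 are 47.0 and 48.1.

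Other genes of matrix production also differed across numbers. Limma's test called 13 of 23 genes that modify, fold or process procollagen, 15 of 24 other interstitial matrix genes, 13 of 20 basement membrane genes and 13 of 15 collagen and fibronectin receptors, against 28.8% of all genes. Bmp1, the proteinase that trims procollagen ends, had means of 4.22, 5.35, 2.44 and 3.72 in 566, 567, 573 and 631 (limma adjusted p = 0.00805). Pcolce2, which enhances it, had -0.54, 0.98, -2.95 and 1.30, and Crtap, of the prolyl 3-hydroxylase complex, had 2.48, 3.45, 1.83 and 3.35 (limma adjusted p = 0.00647 and 0.00867). These are the genes with the smallest p in the list, as are those that follow in theirs.

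Among receptors, Itga5, a fibronectin receptor chain, had -0.17, 0.96, -2.38 and 1.04, and Itga11, which binds fibrillar collagen, had 0.41, 1.76, -2.08 and 0.03 (limma adjusted p = 0.00593 and 0.00789). Itgav, of integrins that bind fibronectin, had 2.57, 3.78, 2.13 and 3.62 (limma adjusted p = 0.00974). Of other matrix genes, Tgfbi had 4.13, 2.69, 0.61 and 4.10, Ecm1 had 5.18, 7.32, 4.50 and 7.58, and Has2, a hyaluronan synthase, had -0.79, 1.07, -1.72 and 1.43 (limma adjusted p = 0.00518, 0.00642 and 0.00706). Of basement membrane genes, the laminin chain Lamb1 had 3.63, 5.05, 3.15 and 5.63, Col18a1 had 4.12, 5.24, 3.31 and 5.12 and Hspg2, perlecan, had 2.49, 3.36, 1.48 and 3.28 (limma adjusted p = 0.00607, 0.00706 and 0.00706). Pcolce2, Itga5, Itga11 and Has2 did not clear the background limit of the GFP-positive array of 573. Over the lists 573 was the lowest for 13 of 23 procollagen genes, 11 of 24 other matrix genes, 9 of 20 basement membrane genes, where 631 was for 11, and 8 of 15 receptors, against 25.1% of all genes.

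Between populations no gene of these lists passed. Higher on average were 10 of 23, 13 of 24, 12 of 20 and 5 of 15 in the same order of lists, against 36.2% of all genes. Fbln5, fibulin-5, differed by 1.56, 0.31, 0.43 and 1.83 in the 4 numbers, with a mean of 1.03 (SE 0.37). Itga1, a collagen receptor chain, differed by -1.28, -1.61, -1.59 and -0.18, with a mean of -1.16 (SE 0.38), but neither of its values in 573 was above the limit of the GFP-positive array, so that pair is not measured. P4ha1, a collagen prolyl 4-hydroxylase, lay lower in GFP-positive cells of each number, with a mean of -0.71 (SE 0.43). Lama3, a chain of an epithelial laminin, differed by 1.40, 1.73, -0.51 and 4.36, with a mean of 1.75 (SE 1.05), and its widest difference rests on the GFP-negative array of 631.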

How the data were processed

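Each array carries 1 Cy3-labelled sample, and its deposited values are intensity per spot, extracted by the authors; the submitters' processing notes name Agilent Feature Extraction 10.7.3.1. This processed intensity is background-subtracted and detrended per the file headers and not normalized between arrays. The deposited series table of intensity was equal to it in all 62976 spots of each array. Control spots and outlier flags were left out, spots of a probe averaged (56555 of 56605 gene probes kept), and log2 taken minus the array's 75th percentile over gene spots. Accessions matched to RefSeq (GRCm38.p6) named 32969 probes. A probe stayed if every array of 1 population or the other called it well above background (26316 did), and the brightest probe stood for a gene. limma 3.58.1 (R 4.3.3) compared GFP-positive minus GFP-negative with no block, and p was adjusted by Benjamini-Hochberg over all 20265 genes at a threshold of 0.05. SE is that of this fit, except where the block is named, so it also holds the spread between numbers. The fit was tested on simulated data, for populations without the spread between title numbers that these data have. That run therefore does not measure the power or error of the population comparison here.

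Title numbers do pair the samples, since 2 arrays of 1 number deviated together, with correlations of 0.573, 0.695, 0.642 and 0.741, while arrays of unlike number reached 0.221 at most. The 34 genes and all lists were chosen with earlier results of these data known. From each further list the 3 genes with the smallest p in a comparison could be named. Alternatives were quantile and median scaling, a percentile over probes seen on all arrays, normexp with an offset of 50 (on the median spot signal, the mean signal of the planned setting not being in these files), other filters, the mean of probes, a common floor, blocks, and arrays or numbers left out. The number of arrays limits the precision.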

Additional observations from a re-analysis of the deposited data

Results flagged for a closer look

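In 8 of 76 groups of 4 arrays 1 value stood apart from the other 3 by Dixon's criterion, which chance meets in about 1 in 20 groups. Among GFP-positive arrays it was that of 573 for 5 matrix genes. Col1a1 was at -0.30 there, against 4.48 to 5.32 on the other GFP-positive arrays. Col6a1 was at 1.11 there, against 3.59 to 4.03. Col6a2 was at -1.92 there, against 0.78 to 1.14. Col6a3 was at -1.98 there, against 2.42 to 2.87. Fbln1 was at -1.35 there, against 0.99 to 1.45. Of these Col6a2, Col6a3 and Fbln1 did not clear that array's background limit. Among GFP-negative arrays it was that of 631 for 2 collagens. Col11a1 was at -1.10, against 2.15 to 2.76 on the others. Col16a1 was at 5.12, against 5.63 to 5.68. The summed endothelial markers were 52.1 on the GFP-positive array of 566, against 3.5 to 10.1 on the other GFP-positive arrays.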

How the results depend on the processing

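Limma called 0 genes between populations under each alternative run, including the number as a fixed or random replicate block (smallest limma adjusted p 0.461 and 0.0517), so that the block changed no call. Calls across numbers were 2463 genes and 9 members with quantile normalization, 1481 and 4 with a common floor, 0 and 0 without a filter on dim probes (7640 and 18 at an unadjusted p under 0.05), and 30 members with median scaling; the cause was not tested. With probes above background on all 8 arrays 23 members are left. Of these 15 were lowest in 573, against 25.7% of all such genes, and 10 highest in 567, against 16.7%. Leaving out arrays or numbers gave 1516 to 5080 genes and 6 to 20 members called, 22 to 30 lowest in 573, 11 to 23 highest in 567, 15 to 31 higher in GFP-positive cells, and a median difference of -0.017 to 0.715. Mean differences near 0 changed sign: Col16a1 0.00074 and Fbln2 0.00391 with quantile normalization, Loxl3 -3.53e-05 with median scaling, and Bgn 0.0377, Fbln2 0.0283 and Loxl2 0.011 with the percentile over probes seen on all arrays. With arrays or numbers left out, the differences that changed sign ranged from -0.21 to 0.085 for Col16a1, -0.47 to 1.46 for Loxl1, -0.13 to 0.43 for Loxl3, -0.40 to 0.089 for Pdgfra, -0.19 to 0.39 for Sparc, -0.41 to 0.30 for Bgn, -0.79 to 0.54 for Fbln1, -0.22 to 0.18 for Fbln2, -0.45 to 0.73 for Fbn1, -1.17 to 0.66 for Col5a1, -0.72 to 0.62 for Loxl2, -1.26 to 0.0079 for Col6a1, -0.92 to 0.19 for Col6a2, -1.63 to 0.21 for Col6a3, -0.44 to 0.14 for Fn1, -0.00064 to 1.98 for Col1a1, -0.21 to 0.79 for Fstl1, -0.15 to 1.33 for Col11a1, -0.084 to 0.62 for Thbs1, -0.038 to 0.82 for Postn. Leaving out a single array breaks a pair in a fit without a block, so such differences also carry the differences between numbers. Of 716 alternative values of the members' differences, 56 changed sign. The signal limit of the GFP-positive array of 573 leaves 10 members there without a measured level.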
